A study of Caenorhabditis elegans with 2 samples.

Results

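The microRNA (miRNA) genes of Caenorhabditis elegans were examined in a map of DPL-1 binding made by chromatin immunoprecipitation and sequencing (ChIP-seq). They comprised every nuclear gene with the miRNA biotype in the Ensembl annotation of WBcel235, 261 loci among 46890 annotated nuclear genes, each taken once at its precursor hairpin. The study had 1 group, whole young adult worms of mixed sex, in 2 biological replicates. All worms were of strain YL390, which carries unc-119(ed3) on chromosome III and the transgene vrIs48, in which the pie-1 promoter drives DPL-1 fused to GFP and FLAG with the dpl-1 3′ UTR, together with wild-type unc-119. The pie-1 promoter is active in the germline, so the tagged protein need not follow native DPL-1 in other tissues, and its level in each tissue was not measured. The antibody field of the labels names dpl-1, another field gives the GFP fusion as the ChIP target, and no group lacked the tag.

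DPL-1 is the DP partner of the E2F-type factor EFL-1 and part of the DREAM complex, which represses many cell cycle and germline genes. A miRNA gene is copied into a primary transcript. Drosha and its partner PASH-1 cut out the hairpin, Dicer cuts the hairpin to a short duplex, and an Argonaute protein carries 1 strand to target mRNAs. Pairing rests mainly on the seed, bases 2 to 8 of the mature miRNA, so miRNAs of a family with a common seed can act on overlapping targets. The mir-35 family is known for its role in embryonic development, and let-7 and lin-4 for the timing of larval development.

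The mature miRNAs of the strongest peaks that lay outside protein-coding promoters are shown first, with the members of the same seed families that lie elsewhere in the genome and had no optimal IDR summit. Bases 2 to 8 are in capitals, and the sequences are read from the RefSeq copy of WBcel235 at the annotated mature positions. They are the strands from the 3′ arm here and, in the next set, from the 5′ arm, except mir-63 (3′ arm). The first 8 have the seed CACCGGG and are all the annotated loci with it. The hairpins of mir-35 to mir-41 lie within 797 bp on chromosome II, and that of mir-42 lies elsewhere on the same chromosome, with mir-43 and mir-44.
mir-35: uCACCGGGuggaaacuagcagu
mir-36: uCACCGGGugaaaauucgcaug
mir-37: uCACCGGGugaacacuugcagu
mir-38: uCACCGGGagaaaaacuggagu
mir-39: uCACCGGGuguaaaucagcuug
mir-40: uCACCGGGuguacaucagcuaa
mir-41: uCACCGGGugaaaaaucaccua
mir-42: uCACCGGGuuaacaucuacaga

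The seed AUGACAC is held by 5 annotated loci, and the mature miRNAs of 4 of them follow. The hairpins of mir-229, mir-64, mir-65 and mir-66 lie within 755 bp on chromosome III, and that of mir-63 on chromosome X.
mir-229: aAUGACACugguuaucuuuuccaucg
mir-64: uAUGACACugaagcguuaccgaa
mir-66: cAUGACACugauuagggauguga
mir-63: uAUGACACugaagcgaguuggaaa

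Of the 261 loci, 20 (7.66%) had a summit of the optimal IDR list in a window that began 1000 bp before the hairpin start and ended 500 bp after it. Among protein-coding genes the share was 8.81%, counted with 1 window of the same size per gene, so the overall miRNA share lay near the background. The optimal IDR list is the set of 1546 peaks the authors kept after comparing how peaks ranked in separate calls. It held the same peaks as the 1546 of highest signal in the pooled list. The 20 loci rested on 10 peaks, because neighbouring hairpins had the same summit, and no locus had more than 1. With hairpins on the same strand within 1000 bp taken as 1 unit, 10 of 227 units (4.41%) had a summit.

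The 20 loci fell into 12 whose summit lay outside every protein-coding promoter window and 8 whose summit also lay inside such a window. The 12 were mir-35 to mir-41, mir-229 with mir-64 to mir-66, and mir-2214, behind 3 peaks. They made up 4.6% of the miRNA loci, against 0.705% of the 26656 nuclear non-coding genes of other kinds. Most of those are piRNA genes, of which 0.0325% had such a summit, while tRNA genes had 8.17%, snoRNA genes 8.38% and snRNA genes 3.1%. As units, 3 of 227 (1.32%) had such a summit, so the locus share was carried by the clusters. The plot of gene classes shows these shares side by side.

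**Figure D1:**
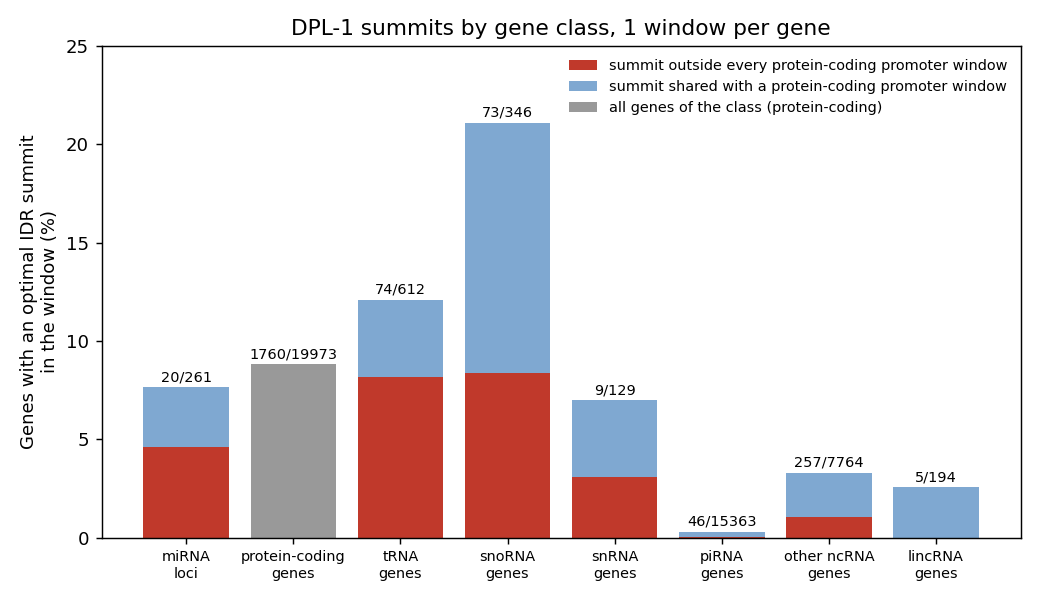
Share of genes of each class with an optimal IDR summit in 1 window per gene (y axis, percent), split into summits outside (red) and inside (blue) a protein-coding promoter window, with protein-coding genes in grey and the counts above the bars. The miRNA bar (7.66%, of which 4.6% outside) stands near the protein-coding bar (8.81%) and below the tRNA (12.1%) and snoRNA (21.1%) bars.

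The mir-35 to mir-41 cluster had the strongest of the unshared peaks. This peak (chrII:11537289-11537411, summit 11537372) had a signal of 42.6 in the replicate 1 list and 72.2 in the replicate 2 list, and of 113 from the pooled reads. It ranked 109 in replicate 1, 219 in replicate 2 and 176 in the optimal IDR list, where rank 1 is the highest signal. Both replicates placed it high, and their summits lay 5 and 20 bp from the pooled one. The summit was 236 bp upstream of the mir-35 hairpin and 936 bp upstream of that of mir-41, so the 7 loci are a single observation of binding. The cluster lies in an intron of Y62F5A.9 on the opposite strand, and the summit was 1469 bp downstream of the start of that gene, the nearest protein-coding start. An annotated non-coding RNA gene on the strand of the hairpins, Y62F5A.16, starts nearer to the summit than mir-35 does. The summit was 155 bp upstream of it.

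A weaker summit lay beyond the other end of the cluster. It was 919 bp downstream of the mir-35 start in the pooled list, with a signal of 17.3 and rank 2274, below the optimal IDR list. Replicate 1 had a summit at 929 bp with a signal of 7.82 and rank 2527, and replicate 2 had one at 1038 bp with a signal of 7.82 and rank 4635. The upstream peak was the stronger in all 3 of these lists. By contrast mir-42, the member of the seed family outside the cluster, had no summit in its window in any of the 4 lists, and neither did its neighbours mir-43 and mir-44.

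The mir-229 cluster showed the same layout. Its peak (chrIII:2172070-2172359, summit 2172215) had a signal of 16.1 in replicate 1 and 30.3 in replicate 2, and of 49.1 from the pooled reads. The ranks were 679, 719 and 628, so it stood in the same part of all 3 lists. The summit was 237 bp upstream of the mir-229 hairpin and 893 bp upstream of that of mir-66. The cluster lies in an intron of gcn-1, a regulator of translation, on the same strand, and the nearest protein-coding start, that of gcn-1, was 20270 bp upstream of the summit. The family member mir-63 had a strongest summit of 6.32 in the pooled list (rank 16131), 2.73 in replicate 1 and 4.57 in replicate 2. These summits lay at different positions in the window, and all were far down the lists.

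**Figure D2:**
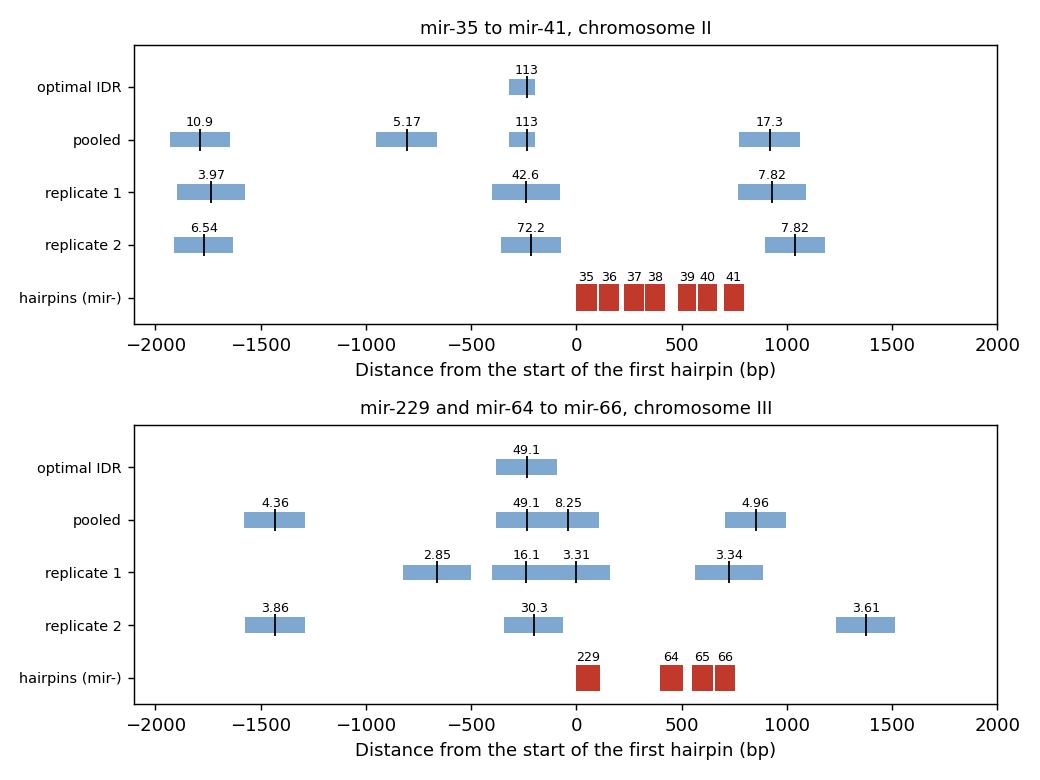
Peaks of the 4 lists (blue bars, summits as black ticks, signals as numbers) around the hairpins (red) of the mir-35 and mir-229 clusters; the x axis is the distance in bp from the start of the first hairpin. In both clusters the strongest peak of each list lies 203 to 241 bp upstream of the first hairpin, and the other peaks have signals of 17.3 or less.

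The third unshared peak was weak and uneven between replicates. The peak of mir-2214 (chrIII:7278490-7278779, summit 7278635) had a signal of 4.24 in replicate 1, where it ranked 11674, and of 21.5 in replicate 2, where it ranked 1078. From the pooled reads it had 28.2 and rank 1264. With the 1546 strongest peaks of replicate 1 alone, mir-2214 no longer had a summit, and the count of unshared loci was 11. The summit was 80 bp upstream of the hairpin, in an intron of B0361.11 on the same strand, and 1036 bp downstream of the start of that gene, beyond its promoter window. It was also 104 bp upstream of the non-coding RNA gene B0361.13 on the opposite strand. A second optimal IDR peak (11.8, 25.8 and 36.9, rank 895) lay 1268 bp upstream of the hairpin, outside the window. Its summit was between the starts of spot-1 and of the host gene B0361.11, in the promoter windows of both genes. With 1 start taken per protein-coding gene in place of all transcript starts, 13 loci were unshared.

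The other 8 loci had 7 peaks that also lay in the promoter window of at least 1 protein-coding gene, and such a peak cannot be assigned to 1 gene. The strongest belonged to mir-4932, with a signal of 55.6 in replicate 1, 125 in replicate 2 and 176 from the pooled reads (rank 60). Its summit lay 115 bp downstream of the hairpin start and 30 bp upstream of klp-16, a kinesin of the meiotic spindle, and 186 bp upstream of smn-1, the survival of motor neuron gene. The peak of mir-354 had signals of 31.9, 86.7 and 117 in the same order (rank 160). Its summit was 852 bp upstream of the hairpin, which overlaps an exon of the ribosomal protein gene rps-20, but 157 bp upstream of ekl-4 and 240 bp upstream of rps-20. In both cases the protein-coding start was the nearer.

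The peak of mir-5549 had signals of 38.7 in replicate 1, 48.2 in replicate 2 and 88.2 from the pooled reads (rank 281). Its summit was 38 bp upstream of the hairpin, 130 bp upstream of the clamp loader gene rfc-4 and 411 bp upstream of eef-1A.1, an elongation factor gene. The mir-4934 peak (18.1, 20 and 38.6, rank 842) was 60 bp upstream of the hairpin and 213 bp upstream of mtr-4, the RNA exosome helicase, with catp-6 at 901 bp. The mir-5595 peak (10.6, 23.6 and 36.3, rank 919) was 117 bp upstream of the hairpin and 306 bp upstream of a start of nurf-1, a chromatin remodelling gene, inside an intron of that gene. At these 3 loci the hairpin start was the nearer. By this nearest-start rule 16 of the 20 loci were set apart from protein-coding genes, mir-61 being the fourth addition.

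The mir-61 and mir-250 hairpins had 1 peak between them, shared with F55A11.4. Its signals were 19.3 in replicate 1 (rank 505) and 10.2 in replicate 2 (rank 2877), and 30.6 from the pooled reads (rank 1148), and it was the only 1 of the 10 peaks with the higher signal in replicate 1. The summit was 106 bp upstream of mir-61 and 205 bp upstream of F55A11.4. With the 1546 strongest peaks of replicate 2 alone, both loci lost it. The mir-1824 peak (16.1, 21.8 and 37.7, rank 872) lay 423 bp downstream of the hairpin start, 88 bp upstream of Y87G2A.18 and 172 bp upstream of Y87G2A.1.

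**Figure D3:**
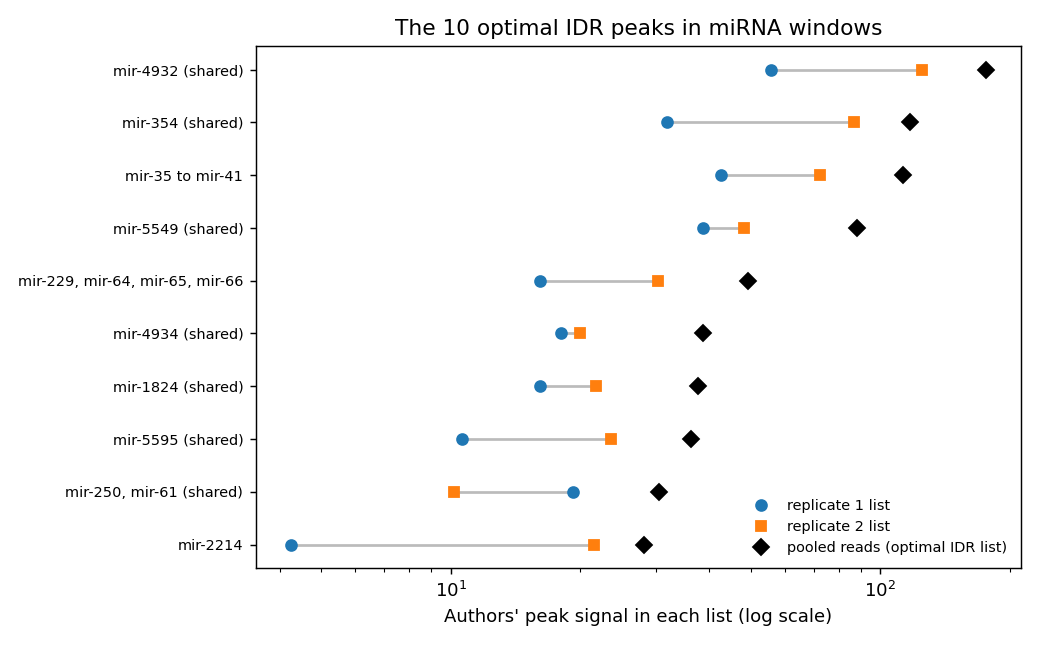
Authors' signal (x axis, log scale) of the 10 optimal IDR peaks in miRNA windows, from the replicate 1 list (circles), the replicate 2 list (squares) and the pooled reads (diamonds), strongest pooled peak at the top; peaks also in a protein-coding promoter window are marked as shared. The replicate signals lie close together for mir-4934 (18.1 and 20, but ranks 563 and 1180) and far apart for mir-2214 (4.24 and 21.5, ranks 11674 and 1078). Signals of different lists are on different scales, so near-equal signals are not equal ranks.

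Each of the 10 peaks was matched in both replicate lists by a summit no more than 100 bp away, and 8 of them (80%) were among the 1546 strongest of both. For all nuclear optimal IDR peaks these shares were 89.9% and 59%. The median signal of the 10 peaks was 18.7 in replicate 1 and 26.9 in replicate 2, against 15 and 28.6 for all nuclear optimal IDR peaks. Signals of different lists are on different scales, so ranks were compared as well. The rank was better in replicate 1 for 7 of the 10 and for 653 of the 1522 nuclear optimal IDR peaks. The median pooled signal of the 10 peaks, 43.9, lay near that of the whole optimal IDR list, 42.2.

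The E2F-type motif was looked for under the 10 peaks, written TTSSCGC, with S for C or G, which was searched on both strands as TTCCCGC, as TTCGCGC, as TTGCCGC or as TTGGCGC. It lay within 100 bp of 3 of the 10 summits (30%, exact binomial 95% interval 6.67% to 65.2%), against 37.2% of all nuclear optimal IDR summits and 9.72% of all nuclear pooled summits. The interval covers counting error only. The 3 were the peaks of mir-4932, mir-4934 and the mir-229 cluster. The motif written backwards, CGCSSTT, served as a control of the same base content. It lay within 100 bp of 2 of the 10 summits (20%), against 14.1% of all nuclear optimal IDR summits and 4.05% of all nuclear pooled summits. With 10 peaks, 3 and 2 cannot be told apart. The CHR-type motif, TTCGAA or TTTGAA, lay within 100 bp of 4 of the 10 summits (40%) and of none of the 3 unshared ones, against 64.3% of all nuclear optimal IDR summits and 55.9% of all nuclear pooled summits.

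The matches of the mir-229 cluster, of mir-4934 and of the mir-35 cluster are shown on the plus strand, with the match in capitals, because they lay at very different distances from the summit. At mir-229 a match (chrIII:2172209-2172215) was centred 3 bp from the summit and a second (chrIII:2172296-2172302) 84 bp from it. At mir-4934 the match (chrIV:9825421-9825427) was 57 bp away. The nearest match to the mir-35 summit (chrII:11537731-11537737) was 362 bp away and was the only 1 within 1000 bp on either side. It lies inside the mir-36 hairpin, over the first bases of the mature strand from its 5′ arm, whose sequence is cGCCAAUUuucgcuucagugcua.
mir-229, first match: gttattgagcgGCGGGAAaaaacgcgctc
mir-229, second match: acgccagaaagGCGGGAAttttggaaggc
mir-4934: ttagaattaaaTTGGCGCttccagaacaa
mir-35 cluster, in mir-36: gtcggggaaccGCGCCAAttttcgcttca

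Over the whole windows of 1501 bp, the motif was present for 17 of the 20 loci with an optimal IDR summit (85%), for 98 of the other 241 (40.7%) and for 35.6% of protein-coding windows. The windows of a cluster overlap, and the 7 windows of the mir-35 cluster hold the match in mir-36. Counted once per peak, at the hairpin nearest to the summit, 7 of 10 windows held it.

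No miRNA locus of the X chromosome had an optimal IDR summit. There were 74 such loci, 28.4% of all miRNA loci, while X holds 13.7% of nuclear protein-coding genes. A count of 0 of 74 allows a share of up to about 4.05% (3 of 74) if every locus is an independent observation. Clustered hairpins on X have overlapping windows, so this bound is too low. The share of protein-coding genes on X was 0.989%. On the autosomes 20 of 187 miRNA loci (10.7%) had a summit, against 10.1% of protein-coding genes there. These 20 loci rested on 10 peaks, so clustered hairpins raise the miRNA share and the 2 shares are not like for like. Over all chromosomes, 10 of 227 units (4.41%) had a summit, against 8.81% of protein-coding genes. The counts by chromosome were 3 of 33 on I, 8 of 49 on II, 6 of 27 on III, 1 of 50 on IV and 2 of 28 on V. On II, 7 of the 8 were the mir-35 cluster. Of the 6 on III, 4 were the mir-229 cluster.

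The loci were also split by whether the hairpin start lay in a protein-coding promoter window. A summit lies at most 1000 bp from its hairpin start, so this split largely repeats the definition of sharing. Of 71 hairpins that start inside a protein-coding promoter window, 8 had an optimal IDR summit, and every 1 of these summits was shared. Of the 190 that start outside such windows, 12 had a summit, and none was shared. Among 30 hairpins in an intron on the opposite strand, 9 had a summit, 7 of them in the mir-35 cluster. Among 67 in an intron on the same strand there were 5, and among 153 outside protein-coding genes there were 5, all shared. Of the 11 over a protein-coding exon, mir-354 was the single case.

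Below the optimal IDR list, the pooled list of 30000 peaks and background placed a summit in the windows of 135 loci (51.7%), against 47.4% of protein-coding genes. Both replicate lists had a summit somewhere in the window for 81 loci (31%), against 28.5% of protein-coding genes, and for 45 miRNA loci the summits lay within 100 bp of each other. No list had a summit for 67 loci. The strongest pooled signal had a median of 8.24 over the 135 miRNA loci and 8.22 over the protein-coding genes with a summit, with upper quartiles of 13.7 and 16.9. Both medians were above the median of the whole pooled list, 6.54. Taking the strongest summit of each window raises a median by itself, so nothing is read from that difference. The 135 miRNA loci rested on 114 pooled peaks, and 92 of these loci had a summit among the 15000 strongest pooled peaks.

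The 5 loci next below the optimal IDR list, whose weakest peak had a signal of 23.7, were mir-2213, mir-4936, mir-1819, mir-52 and mir-51. Replicate values here are those of a summit within 100 bp of the pooled one. The mir-2213 summit had a pooled signal of 22 and 18.4 in replicate 2, with no match in replicate 1, and lay in the promoter windows of panl-2 and F31E3.12. The mir-4936 summit had 21.3, with 4.06 in replicate 1 and 15.8 in replicate 2, and was shared with Y53G8AL.4 and nduf-9. The mir-1819 summit, at 19.2, was the strongest on X, with 7.6 in replicate 1 and 9.42 in replicate 2. It was not shared, and neither were those of mir-52 (19, with 5.01 and 10.9) and mir-51 (18.3, with 12.4 in replicate 2 and no match in replicate 1).

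Those last loci belong to the mir-51 family, a large family expressed through development. All 6 members had a summit somewhere in the window in the pooled list and in both replicate lists. Pooled signals were 10.3 to 19 with a median of 18.2, and no member was in the optimal IDR list. The strongest summits of the lists were not always at the same site. At mir-54 the replicate summits lay 453 and 448 bp downstream of the hairpin start, while the pooled summit lay upstream of it. The replicate 2 summit of mir-54, mir-55 and mir-56 was the same (13, rank 2043). The members mir-55 and mir-56 had the same pooled summit on X. The mir-58 family, related to bantam of flies, had pooled summits at 5 of the 8 loci found under the listed names, with signals of 4.77 to 8.37. Of these, mir-2209.1 and mir-2209.3 had the same summit (7.48), and mir-2209.3 lacks the seed GAGAUCA that mir-80 and mir-2209.1 have. The unlisted Y73B6A.17 has that seed and had the same pooled summit as mir-58.2 (5.26). The mir-44 family had 30.6 at mir-61, 8.29 at mir-45 and no summit in any list at mir-44 and mir-247.

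No developmental timing miRNA of the let-7 or lin-4 family was in the optimal IDR list. The let-7 family had pooled summits at 5 of 7 loci, with signals of 6.68 to 9.58 and a median of 7.62, near the median of 8.24 over all miRNA loci with a pooled summit. At let-7 the signal was 6.82 in the pooled list (rank 13813) and 3.59 in replicate 2 (rank 18531), with no summit in replicate 1. At lin-4 the pooled list had a signal of 5.19 at a summit upstream of the hairpin start. Replicate 1 had 3.32 at a different summit, 348 bp downstream, and replicate 2 had none. The lin-4 family member mir-237 had a summit in replicate 1 alone (2.92). Of the 11 single genes, which included the neuronal lsy-6 and mir-124, the muscle miRNA mir-1 and mir-71, 9 had a pooled summit, at 4.5 (lsy-6) to 14 (mir-2). Among the listed loci of these families and single genes, only members of the mir-35, mir-64 and mir-44 families were in the optimal IDR list. Some genes listed as single have seed partners elsewhere. The seed of mir-2 and mir-43 is also held by mir-250, and that of mir-34 by mir-1824. Both mir-250 and mir-1824 had an optimal IDR summit.

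**Figure D4:**
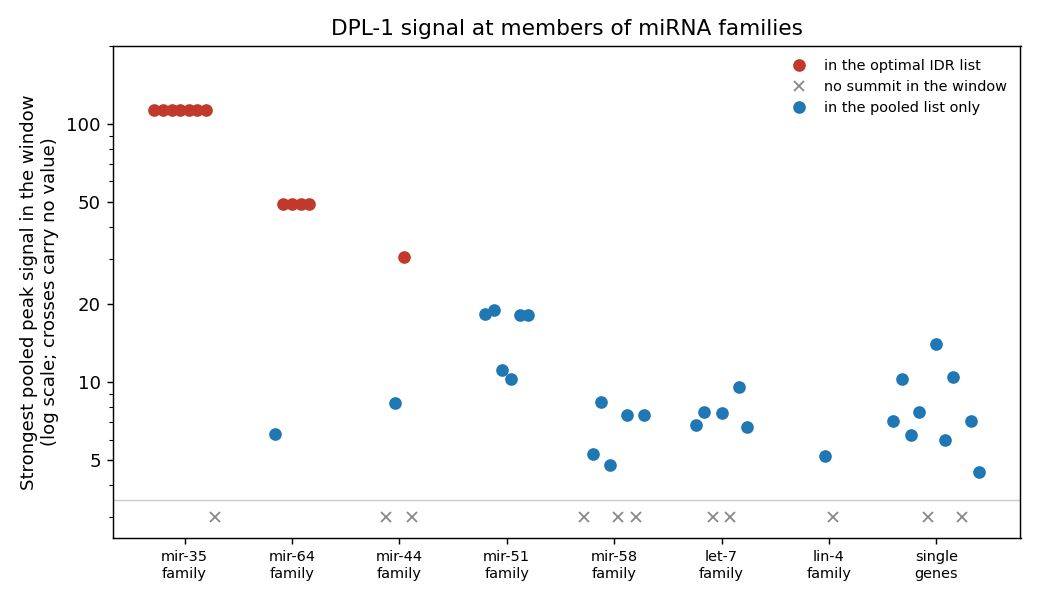
Strongest pooled signal in the window of each family member (y axis, log scale), in red for members with an optimal IDR summit and in blue for those with a pooled summit only; grey crosses mark members with no pooled summit and carry no value. The 7 clustered mir-35 members lie at 113 and the 4 clustered mir-64 members at 49.1, while the mir-51, mir-58, let-7 and lin-4 families lie at 19 or below.

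Protein-coding genes of the miRNA pathway were read from a list of gene names that was chosen with earlier results of these data known, so its share is a description and no evidence that the pathway stands apart. Of the 27 found, 12 (44.4%) had an optimal IDR summit in a promoter window, while 9.16% of all nuclear protein-coding genes did when every transcript start is used. Of the 12, 8 had a summit that was also in the window of another protein-coding gene. For hairpin processing, the Drosha partner gene pash-1 had a peak with a signal of 14.9 in replicate 1 (rank 768) and 88.9 in replicate 2 (rank 157), and of 99.4 from the pooled reads (rank 226). Its summit was 90 bp upstream of the start and shared with no other gene. The Dicer gene dcr-1 had 16, 18.4 and 34.2, shared with apc-2. The Drosha gene drsh-1 had no summit in the pooled list, so the partners of the first cutting step differed.

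Among the Argonaute genes, alg-2 had a peak of 18.6 in replicate 1, 17.6 in replicate 2 and 39.2 from the pooled reads, 76 bp downstream of a start, and it was not shared. The alg-5 peak (16.6, 26.9 and 33.3) lay 839 bp upstream and was shared with the histone genes his-67 and his-68. The X-linked alg-1 had no pooled summit. The GW182-type genes split in the same way, with ain-2 at 17.8, 21.9 and 41.6 (shared with ptps-1) and the X-linked ain-1 at 8.34 in the pooled list, outside the optimal IDR list. Of the 3 listed genes on X, alg-1, ain-1 and pab-2, none had an optimal IDR summit.

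Cofactor and export genes came next, and cgh-1 and vig-1 among them had the highest pooled signals of the 27 genes, above pash-1. The helicase gene cgh-1 had 85 in replicate 1 (rank 10), 163 in replicate 2 (rank 30) and 252 from the pooled reads (rank 16), with its summit 767 bp upstream. The RISC factor gene vig-1 had 32.2 (rank 212), 163 (rank 31) and 197 (rank 41), 422 bp upstream and unshared. The nuclease gene tsn-1 had 10.5, 34.3 and 43.3, and the TRIM-NHL gene nhl-2 had 4.72, 26.3 and 32.2. The deadenylase scaffold gene let-711 had 12.5, 23.6 and 34.7. The nuclear export genes xpo-1 and xpo-2 had pooled signals of 43.2 and 26.9. The E2F-type motif lay within 100 bp of the summit at cgh-1 and let-711, 2 of the 12.

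The other 15 pathway genes were not in the optimal IDR list. The let-7 regulator lin-28 had a pooled signal of 21 (9.38 in replicate 1 and 9.09 in replicate 2), and the let-7 target lin-41 had 12. The poly(A)-binding protein gene pab-1 had 23.3 (rank 1582), just below the list. The exonuclease genes xrn-2 and xrn-1 had 12.6 and 7.33, and paxt-1, whose product binds XRN-2, had no pooled summit. The list also held gip-1, a gamma-tubulin complex gene with no known part in the pathway (5.55). With the 773 strongest optimal IDR peaks, 5 of the 27 genes had a summit.

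**Figure D5:**
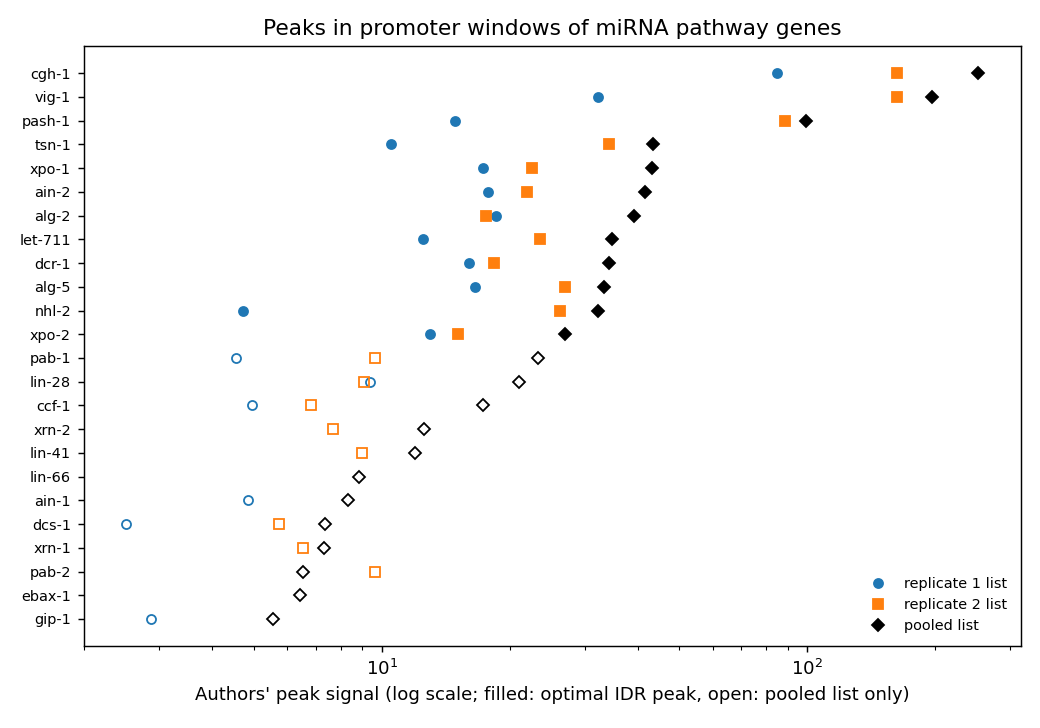
Authors' signal (x axis, log scale) of the strongest peak in a promoter window of each pathway gene with a pooled summit, in the pooled list (diamonds) and at the matching summit of replicate 1 (circles) and replicate 2 (squares); filled symbols mark the 12 genes with an optimal IDR summit. The genes cgh-1, vig-1 and pash-1 lead at 252, 197 and 99.4, and replicate 2 lies above replicate 1 at 11 of the 12.

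The hairpin start is not the start of the primary transcript, which was annotated apart from the hairpin for 7 loci, and a promoter more than 1000 bp away falls outside these windows.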

How the data were processed

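DPL-1 ChIP-seq of 2 biological replicates was analysed from 4 peak lists on ce11, the same assembly as WBcel235. Per the deposited description files, a replicate list was made from that replicate's alignment and a further file used for control-normalized tracks, the pooled list from both alignments and that file, and the optimal list from these 3 lists by the irreproducible discovery rate (IDR). Which aligner and peak caller made them is not given in the sources used here. Every peak has a signal value deposited by the authors and a summit position. The authors' −log10 q values were left unused. The replicate and pooled lists hold 30000 peaks each. Depth is unknown, so no counting error can be attached to a signal.

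Annotation came from Ensembl release 115 and sequence from RefSeq. A RefSeq symbol matched 260 of the 261 loci. The mature sequence of 1 locus is not reported here. Around the 5′ end of each hairpin, from 1000 bp before to 500 bp after it, the summit of highest signal was taken in each list. Other classes had 1 window at the gene's 5′ end. A summit was shared when it lay in such a window of any of 29784 protein-coding transcript starts. The window search was tested on simulated peaks. With 1 group no test between conditions exists.

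The loci, families and pathway list were chosen with earlier results of these data known. Loci with an optimal IDR summit were named, as were family members, pathway genes and the 5 next loci by pooled signal. The listed names mir-1834 and ntl-1 matched no annotated symbol (ntl-1 is another name for let-711, which was counted). Alternatives were other windows, the peak interval, the 773 strongest peaks, each replicate alone, clusters as units, other sharing rules and other motif searches. The ce10 lists were not used here. Python 3.11.15, SciPy 1.17.1 and matplotlib 3.10.9 were used.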

Additional observations from a re-analysis of the deposited data

How the results depend on the processing

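The absence of X-linked loci from the optimal IDR list held with a wider window, the peak interval, either replicate alone and gene starts (the last added after seeing the data). It also held with a narrower window, the 773 strongest peaks and clusters as units, but these settings could not have added a locus. The count of loci with an optimal IDR summit, 20, was 19 to 20 with 1 replicate alone, but the members changed. Replicate 2 alone lost mir-250 and mir-61 and gained mir-2213, and replicate 1 alone lost mir-2214 and gained mir-353. The count of 20 became 11 with a window from 500 bp before to 250 bp after the start and 10 with clusters as units. The unshared count of 12 was then 5 and 3, because distant members of the mir-35 and mir-229 clusters left the window or were merged. Among the shared loci, mir-1824 and mir-354 also left that window, and mir-250 and mir-61 became 1 unit. The narrower window also lowered the loci with a pooled summit to 79. The loci with a summit in both replicates, 81, were 36 in the narrower and 135 in the one from 2000 bp before to 1000 bp after, 45 when summits had to lie within 100 bp of each other and 48 with the 15000 strongest peaks of each list. The pathway count of 12 was 5 with the 773 strongest peaks. No paired analysis was possible because the study has 1 group. Depth is unknown, so the absence of a summit does not show the absence of binding.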

Other observations

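A window from 2000 bp before to 1000 bp after the hairpin start added 6 loci to the 20. The addition of highest signal was mir-72 on chromosome II, whose peak (chrII:2451142-2451297) had 31.1 in replicate 1 (rank 227), 97.7 in replicate 2 (rank 127) and 128 from the pooled reads (rank 136). Its summit lay 1618 bp upstream of the hairpin, between protein-coding genes, in no protein-coding promoter window, and had the E2F-type motif within 100 bp. The nearest protein-coding start, that of pqn-42, was 3473 bp away. The peak was chosen for mention after its values were seen, and no annotated primary transcript joins it to mir-72. The other 5 peaks lay in protein-coding promoter windows. That of mir-1828, 1880 bp upstream of the hairpin, was the pash-1 peak. The others were those of mir-353 with rpl-24.1 and rps-10 (65.4), mir-8205 with unc-59 and W09C5.1 (78), mir-2216 with cap-2 and gmps-1 (47) and mir-4916 with chn-1 and T09B4.2 (28).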
